A study of Drosophila melanogaster and Drosophila simulans and Drosophila sechellia with 48 samples.

Results

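The adult transition of *Drosophila melanogaster* males was followed on 6 arrays, 3 hybridised with newly emerged adult RNA and 3 with late pupal RNA, out of 48 arrays in the series. The arrays were taken by their sample titles. Adults were labelled as 1.5 h after eclosion, while the study's supplementary protocol collected flies that emerged within a window of 1.5 h. Late pupae were taken 72 h after puparium formation. Both stages came from strain 14021-0231.00, untreated and raised on cornmeal-molasses medium. Pupae came from culture dishes and adults, collected as virgins, from jars. Each stage was represented by whole-body RNA of a single pool of 25 males, amplified in 2 rounds, so its 3 arrays are technical replicates of 1 pool. Every sample was labelled with Alexa647 and competed on a spotted cDNA array with an Alexa555 reference, an unamplified equal mixture of 4 stages of *D. melanogaster* (larval, early pupal, late pupal and adult). Larvae were taken 96 h after they emerged, and early pupae 4 h after puparium formation by the labels but 2 h by the study's methods. The series applied the same 4 stages to *D. simulans*, *D. sechellia* and the male F1 hybrids of *D. simulans* females and *D. sechellia* males. All values are log2(sample/reference) averaged over the 2 spots of an array element, and a change is the adult mean minus the late pupal mean, so that a positive change means more transcript in adults.

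Late in pupal life the adult already lies formed inside the puparium. Its epidermis secretes the layers of the adult cuticle, a composite of chitin fibres and structural proteins, before the animal sheds the pupal case. After eclosion the wings are inflated and the cuticle hardens and darkens by tanning. Larval tissues, such as the fat body with its stored serum proteins, are consumed over the same period, while flight muscle, eyes and brain take up adult function.

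An element entered the table only where all of its spots were usable at all 4 stages, which left 3632 of 13824 elements (26.3%) and 2423 named genes with a value. Genes silent at any one stage are therefore largely absent. Of 131 gene symbols sought for cuticle proteins, taken from the whole genome and not only from the array, 10 were measured. Why the others had no value was not tested. Arrays of one stage correlated at r = 0.893 to 0.934 across elements, and no pair of them carried the same spot noise. The SD over all elements was 1.03 to 1.07 on the adult arrays and 0.936 to 1.02 on the late pupal arrays. Because each stage had 1 pool, the spread between pools was estimated from the hybrid pools, of which several were hybridised per stage, and p-values rest on the assumption that *D. melanogaster* pools vary alike. In 1 of those hybrid groups, the larval one, replicate 1 stood apart (r = 0.760 and 0.771 with the others, which correlated at 0.932), and without it the call count given next was 162, with 97 genes higher and 65 lower in adults. Hybrid adult replicates 1 and 2 did share spot noise (correlation of duplicate-spot differences 0.606) and were merged to 1 unit. Whole-body RNA cannot tell a change in the number of cells of a type from a change of RNA per cell.

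Between late pupa and adult, 111 of the 2423 genes (4.58%) passed limma's test at a Benjamini-Hochberg adjusted p below 0.05 with at least a 1.5-fold change. Of these, 63 (2.60%) were higher and 48 (1.98%) were lower in adults. The smallest called change was 1.27 on the log2 scale, against a median standard error of 0.43. In all 111 genes the 3 adult arrays lay apart from the 3 late pupal arrays, as they did in 44.1% of all genes tested. The typical gene moved little, with a median absolute change of 0.36 and a median change of -0.01, and 65 genes moved by at least 2 on the log2 scale. Of the called genes, 10 had no value in the hybrids, among them TwdlE, CG17734 and Cyp6d5. The standard error of these 10 came from the average spread of all genes.

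**Figure D1:**
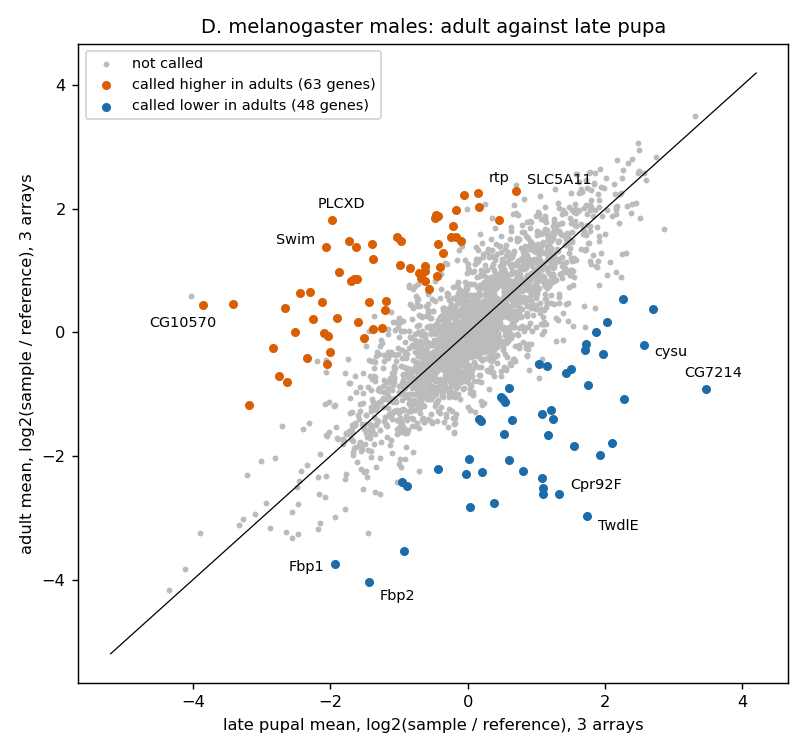
Mean log2(sample/reference) of 3 adult arrays (vertical axis) against 3 late pupal arrays (horizontal axis) for 2423 genes, with the line of equality. The 63 genes called higher in adults lie above the main cloud and the 48 called lower lie below it, with TwdlE and CG7214 farthest below the line.

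The deepest falls were in genes for structural proteins of the cuticle. Of 10 measured members, 7 were called lower in adults (1.98% of all genes tested were) and none higher. The median change of the list was -3.22, against -0.01 over all genes tested. The median of the list was -1.93, -1.55 and -1.99 on the adult arrays, against 1.01, 1.22 and 1.30 on the late pupal arrays. The called members were 2 Tweedle proteins, 4 proteins with the chitin-binding Rebers and Riddiford domain (Cpr) and Vajk3.

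TwdlE, a Tweedle protein gene on 2L, read -2.29, -3.17 and -3.46 on the adult arrays, against 1.20, 1.91 and 2.12 on the late pupal arrays. It fell by 4.71 (SE 0.43, limma adjusted p = 0.000198), the largest called fall, without a hybrid value behind its error. Its relative TwdlT (3R) read -2.29, -2.62 and -2.66 in adults, against 0.98, 1.07 and 1.22 in late pupae, and fell by 3.61 (SE 0.53, adjusted p = 0.000463). For both genes the adult arrays lay below the reference and the late pupal arrays above it.

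Among the Cpr genes, Cpr92F (3R) had -2.48, -2.61 and -2.76 on the adult arrays, against 1.13, 1.51 and 1.37 on the late pupal arrays. Its change of -3.95 (SE 0.43, adjusted p = 4.84e-05) shared the smallest adjusted p of all genes tested with the rising gene Swim. Cpr49Ae (2R) had -2.80, -2.66 and -2.37 in adults, against 0.77, 1.04 and 1.50 in late pupae, and fell by 3.71 (SE 0.55, adjusted p = 0.000487). Here too the adult arrays and the late pupal arrays lay on opposite sides of the reference.

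Cpr62Bc fell by 2.82 (SE 0.66, adjusted p = 0.0184) and Cpr97Ea fell by 1.67 (SE 0.43, adjusted p = 0.0333). Vajk3 (2L), listed here with the cuticle proteins, had -1.97, -1.78 and -2.22 in adults, against 1.58, 1.87 and 2.32 in late pupae, and fell by 3.92 (SE 0.84, adjusted p = 0.00889). The list was not uniform. Cpr100A stayed high, at 1.15, 1.74 and 1.63 in adults, against 1.12, 1.63 and 1.52 in late pupae (change 0.08), Twdlalpha had a change of 0.01, and Cpr62Bb, at -1.13 (adjusted p = 0.11), did not pass the test although its adult and late pupal arrays did not overlap.

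Further large falls were seen in genes outside that list. CG7214 stood highest of the called genes in late pupae, at 3.69, 3.63 and 3.09, and had -0.63, -0.90 and -1.23 in adults. It fell by 4.39 (SE 0.43, adjusted p = 0.000253), and a second element of the gene changed by -3.41. CG4962 fell by 3.89 (adjusted p = 0.00309), CG2663 fell by 3.38 (adjusted p = 0.000281) and CG11413 fell by 3.36 (adjusted p = 0.0441). No role is assigned here to these 4 genes. The call of CG11413 was lost in 12 of 35 alternative fits, in which its change lay between -3.59 and -3.01.

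Of the remaining large falls, slf and cer have known roles. Schlaff (slf, 2L), a lectin of the extracellular matrix needed for the cohesion of cuticle layers, had -1.89, -2.71 and -2.46 in adults, against 0.88, 1.20 and 1.15 in late pupae, and fell by 3.43 (SE 0.65, adjusted p = 0.00382). Crammer (cer, 2R), an inhibitor of cysteine cathepsins, had -2.67, -2.77 and -2.86 in adults, against 0.16, 0.44 and 0.55 in late pupae, and fell by 3.15 (SE 0.62, adjusted p = 0.00471). CG34166, with no role given here, fell by 3.05. In all 3 genes the adult arrays lay below the reference and the late pupal arrays above it.

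**Figure D2:**
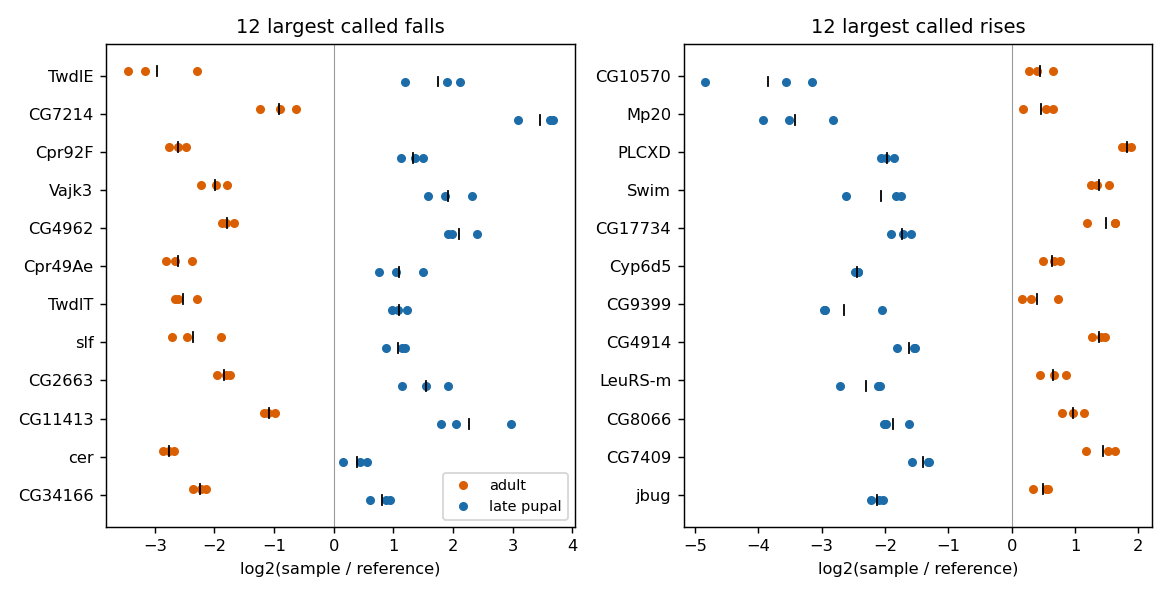
Log2(sample/reference) on each of 3 adult and 3 late pupal arrays (points; horizontal axis) with the mean of each stage (black ticks) for the 12 largest called falls (left panel) and the 12 largest called rises (right panel). No gene shown has overlapping stages, and the falling genes lie below 0 in adults and above 0 in late pupae.

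Of 14 measured members of the chitin synthesis and remodelling list, 1 was called lower (1.98% of all genes tested were), 3 had an unadjusted p below 0.05, all of them lower, and the median change was -0.20. The called gene, expansion (exp, 2R), which is needed for tracheal tube shape, had -0.81, -1.15 and -1.25 in adults, against 0.18, 0.71 and 0.67 in late pupae, and fell by 1.59 (SE 0.42, adjusted p = 0.0361). Gasp, a chitin-binding protein of the tracheal lining, and Cda4, a chitin deacetylase, had changes of -1.49 and -1.42 with adjusted p = 0.369 and 0.154. For Gasp the hybrid pools set a standard error of 0.70, so that a mean difference of this size did not pass.

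Of 6 measured genes of tanning and pigmentation, 2 were called lower (1.98% of all genes tested were), both of the yellow family, and the median change was -0.76. The gene yellow-d2 (2R) had -1.39, -1.41 and -1.15 in adults, against 0.80, 1.25 and 1.20 in late pupae, and fell by 2.40 (SE 0.46, adjusted p = 0.00382). The gene yellow-h, on chromosome 4, had 0.55, 0.08 and -0.10 in adults, against 1.94, 2.19 and 1.95 in late pupae, and fell by 1.85 (SE 0.43, adjusted p = 0.0172). Another relative, yellow-b, had a change of -1.51 (adjusted p = 0.0732). Speck, an N-acetyltransferase of amines such as dopamine, had the opposite sign at 1.20 (adjusted p = 0.0867), with its adult arrays all above its late pupal arrays.

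Cyp301a1, a mitochondrial cytochrome P450 required for adult cuticle formation and counted here under detoxification, had -0.41, -0.38 and -0.99 in adults, against 1.53, 1.29 and 1.70 in late pupae, and fell by 2.10 (SE 0.48, adjusted p = 0.0153). Curly Su (cysu), a haem peroxidase that acts in the wing, belongs to no list and was chosen after its values were seen. It had -0.39, -0.27 and 0.07 in adults, against 2.52, 2.70 and 2.46 in late pupae, and fell by 2.76 (SE 0.41, adjusted p = 0.000484). The septate junction genes Gliotactin (Gli) and varicose (vari), chosen in the same way, fell by 2.31 (adjusted p = 0.0112) and 1.99 (adjusted p = 0.0172).

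Of 4 measured genes of larval serum and fat body proteins, 2 were called lower in adults (1.98% of all genes tested were). In the same list 1 was called higher (2.60% of all genes tested were). Fbp2, a protein of the larval fat body, had -3.91, -3.93 and -4.28 in adults, against -1.72, -1.53 and -1.07 in late pupae, and fell by 2.60 (SE 0.52, adjusted p = 0.00569). Fbp1, the receptor through which the fat body takes up larval serum proteins, had -3.74, -3.51 and -3.98 in adults, against -1.76, -1.73 and -2.30 in late pupae, and fell by 1.81 (SE 0.51, adjusted p = 0.0486), a call lost in 16 of 35 alternative fits. The lipophorin receptor LpR2, in the same list of 4, rose by 1.61 (SE 0.38, adjusted p = 0.0202), and its neighbour in function, LpR1, had a change of -0.05. Late pupal arrays of both Fbp genes already read below the larval and early pupal means, which lay between -0.97 and -0.47.

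The rises were spread over more functions. The largest called rise, CG10570 (2L), with no role given here, had 0.28, 0.41 and 0.65 in adults, against -3.15, -4.84 and -3.56 in late pupae, a change of 4.29 (SE 0.52, adjusted p = 0.000105). PLCXD (2L), which carries the catalytic X domain of phospholipases C, had 1.75, 1.81 and 1.89 in adults, against -1.86, -2.06 and -1.99 in late pupae, a change of 3.78 (SE 0.45, adjusted p = 0.000105). Swim (2R), a secreted protein that binds the Wingless ligand, had 1.26, 1.34 and 1.53 in adults, against -1.83, -2.61 and -1.74 in late pupae, a change of 3.44 (SE 0.37, adjusted p = 4.84e-05). In each of the 3 genes, adults read above the mixed-stage reference and late pupae far below it.

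CG7409, of the small heat shock protein family, rose by 2.84 (SE 0.44, adjusted p = 0.000636), with 1.17, 1.53 and 1.63 in adults, against -1.32, -1.57 and -1.31 in late pupae. Jitterbug (jbug), a filamin-type actin crosslinker, rose by 2.61 (SE 0.43, adjusted p = 0.00118). CG17734, CG9399, CG4914 and CG8066 rose by 3.22, 3.05, 3.01 and 2.85, with adjusted p = 0.00142, 0.000253, 0.000694 and 0.000398. No role is stated here for these 4 genes, and a second element of CG9399 changed by 2.13. The largest rise of any gene tested, 4.62 in Sclp, was not a call: its arrays read 0.42, 0.53 and 0.82 in adults, against -3.67, -4.33 and -4.09 in late pupae, but the hybrid pools gave it a standard error of 1.39 (adjusted p = 0.0731).

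Of 13 measured genes of the sarcomere and flight muscle, 2 were called higher (2.60% of all genes tested were) and none lower, 8 had a change above 0, and the median change was 0.09. Mp20 (2R), a calponin-like muscle protein, had 0.18, 0.54 and 0.65 in adults, against -2.82, -3.51 and -3.92 in late pupae, a change of 3.88 (SE 0.56, adjusted p = 0.000398). Zasp66 (3L), a protein of the sarcomere's Z-disc, had -0.23, 0.33 and -0.11 in adults, against -2.01, -2.21 and -2.07 in late pupae, a change of 2.09 (SE 0.40, adjusted p = 0.00396). Changes lay between -0.11 and 0.26 for the actins Act57B, Act79B, Act87E and Act88F, for wupA (troponin I), Tm2 (tropomyosin), Prm (paramyosin) and the calcium-binding protein Scp1. Thin (tn), a muscle protein of the TRIM family, had a change of 1.20 (SE 0.67, adjusted p = 0.5), the myosin light chain gene Mlc1 one of 0.58 (SE 0.50, adjusted p = 0.738) and TpnC73F, a troponin C, one of -1.11 (SE 0.37, adjusted p = 0.124). None of these 3 passed the test, although the adult and late pupal arrays did not overlap in any of them.

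For vision, 1 of 3 measured phototransduction genes was called, higher in adults (2.60% of all genes tested were). Rh2, the opsin of the ocelli, had -0.18, 0.21 and -0.01 in adults, against -2.12, -2.85 and -2.57 in late pupae, a change of 2.52 (SE 0.45, adjusted p = 0.00253). Its larval and early pupal means were lower still, at -3.39 and -3.60. Galphaq, the G protein alpha subunit coupled to opsins, and Arr1, an arrestin, had changes of 0.54 and 0.14 and did not pass. Retinophilin (rtp), expressed in photoreceptors and named after its values were seen, rose by 2.10 (SE 0.48, adjusted p = 0.0153), with 2.12, 1.90 and 2.75 in adults, against 0.14, 0.25 and 0.07 in late pupae.

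Most proteasome genes read higher in adults, few of them past the test. Of 26 measured proteasome genes, 3 were called higher (2.60% of all genes tested were) and none lower, 23 had a change above 0 (88.5%, against 49.7% of all genes tested), and the median change was 0.57. Prosalpha6, a subunit of the catalytic core, had 0.44, 0.63 and 0.46 in adults, against -1.60, -0.86 and -1.10 in late pupae, a change of 1.70 (SE 0.39, adjusted p = 0.0169). Rpn12, of the regulatory particle's lid, had -0.48, -0.66 and -0.39 in adults, against -2.09, -2.01 and -2.05 in late pupae, a change of 1.54 (SE 0.40, adjusted p = 0.0348). Rpn3, also of the lid, had a change of 1.43 (SE 0.40, adjusted p = 0.0479), a call lost in 16 of 35 alternative fits.

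No measured gene of the ATPase ring of the regulatory particle passed the test. Changes were 1.26 in Rpt6 (adjusted p = 0.13), 1.24 in Rpt5 (adjusted p = 0.0897) and 1.12 in Rpt2 (adjusted p = 0.123), and Rpt3 was not called either. Of the 26 genes, 7 are paralogs that *Drosophila* expresses in the testis, such as Prosbeta5R1 and Rpt6R, and none of these was called. Their median change was 0.33, against 0.76 for the other 19. The median of the 26 genes was -0.11, 0.20 and -0.09 on the adult arrays, against -1.04, -0.58 and -0.68 on the late pupal arrays. Late pupae were the lowest stage for this list, whose medians were 0.04 in larvae and 0.03 in early pupae.

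Of 10 measured genes of autophagy and cell death, 2 were called higher (2.60% of all genes tested were) and none lower, with a median change of 0.47. The ref(2)P gene (2L), whose product is the p62-type adaptor that carries ubiquitinated cargo to autophagosomes, had 1.39, 1.13 and 1.04 in adults, against -1.21, -1.42 and -1.50 in late pupae, a change of 2.57 (SE 0.37, adjusted p = 0.000398). Atg101 (X), a subunit of the complex that starts autophagy, had 2.27, 1.91 and 1.40 in adults, against -0.05, -0.39 and -0.98 in late pupae, a change of 2.33 (SE 0.60, adjusted p = 0.0303). The remaining 8, among them Atg2, Atg7 and Atg18a, had changes between -0.60 and 0.96. Of 10 subunits of the vacuolar proton pump, which acidifies lysosomes, 1 was called, higher in adults (2.60% of all genes tested were). This subunit, Vha55, had 0.84, 1.35 and 1.04 in adults, against -0.97, -0.65 and -0.23 in late pupae. Its change was 1.70 (SE 0.47, adjusted p = 0.0486), a call lost in 15 of 35 alternative fits. The median change of the pump was 0.59, and 9 of its 10 subunits were above 0.

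In the list of glycolysis and the glycerol phosphate shuttle, 1 of 12 genes was called higher (2.60% of all genes tested were) and none lower, 7 changes lay above 0 and 5 below, and the median was 0.04. The called gene Gpdh1, the cytosolic glycerol-3-phosphate dehydrogenase, had -0.76, -0.67 and -0.66 in adults, against -2.52, -2.66 and -3.05 in late pupae, a change of 2.05 (SE 0.46, adjusted p = 0.0153). Glycogen synthase (Glys) and glycogen phosphorylase (Glyp) had changes of 1.47 (adjusted p = 0.0644) and 1.19 (adjusted p = 0.107), with no overlap between stages in either gene, and the aldolase Ald1 had a change of -1.01 (adjusted p = 0.326). Called genes of sugar handling that belong to no list, picked after their values were seen, were UGP, which makes UDP-glucose (change 2.36, adjusted p = 0.00544), the trehalose transporter Tret1-1 (1.86, adjusted p = 0.0333), Pfrx, which makes the activator of phosphofructokinase (1.64, adjusted p = 0.0312), and the malic enzyme Men-b (1.71, adjusted p = 0.0368). The insulin-regulated transcription factor foxo rose by 1.94 (adjusted p = 0.0158), and its second element changed by 0.84.

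In lipid metabolism 1 of 13 measured genes was called, higher in adults (2.60% of all genes tested were), with a median change of 0.44. The fatty acid synthase FASN3 had -0.08, -0.24 and -0.60 in adults, against -1.70, -2.38 and -1.93 in late pupae, a change of 1.70 (SE 0.43, adjusted p = 0.0283). Desat1, the fatty acid desaturase, had a change of 1.50 (adjusted p = 0.156) and SREBP, a regulator of lipid synthesis, one of 0.98 (adjusted p = 0.348). Detoxification genes split, with 3 of 17 called higher (2.60% of all genes tested were). Of the same 17, 1, the cuticle-related Cyp301a1, was called lower (1.98% of all genes tested were). The P450 gene Cyp6d5 had 0.50, 0.67 and 0.76 in adults, against -2.42, -2.48 and -2.43 in late pupae, a change of 3.09 (SE 0.43, adjusted p = 0.00199). Cyp12a4 rose by 1.47 (adjusted p = 0.025), and a second element of it changed by 3.57. The UDP-glycosyltransferase gene Ugt50B3 rose by 1.37 (adjusted p = 0.0479, lost in 16 of 33 alternative fits).

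Of 5 immune genes 1 was called, higher in adults (2.60% of all genes tested were). It was the NF-kappaB factor Dif, with a change of 1.33 (SE 0.37, adjusted p = 0.0479, lost in 15 of 33 alternative fits). Its inhibitor cactus (cact) and the effector peptide genes BomT2 and BomBc2 had changes of 0.78, 0.63 and 0.57, none past the test. Among translation genes 1 of 24 was called, higher in adults (2.60% of all genes tested were). It was LeuRS-m, the mitochondrial leucyl-tRNA synthetase, with 0.45, 0.66 and 0.86 in adults, against -2.12, -2.70 and -2.09 in late pupae. Its change was 2.96 (SE 0.46, adjusted p = 0.000636). Its cytosolic relative IleRS had a change of -1.07 (adjusted p = 0.135), and the median of that list was -0.24. Of 3 chemosensory genes 1 was called, lower in adults (1.98% of all genes tested were). This odorant-binding protein gene, Obp44a, fell by 1.47 (SE 0.39, adjusted p = 0.0361), while Obp8a and Antdh, a dehydrogenase of the antenna, had changes of -0.52 and -0.49.

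**Figure D3:**
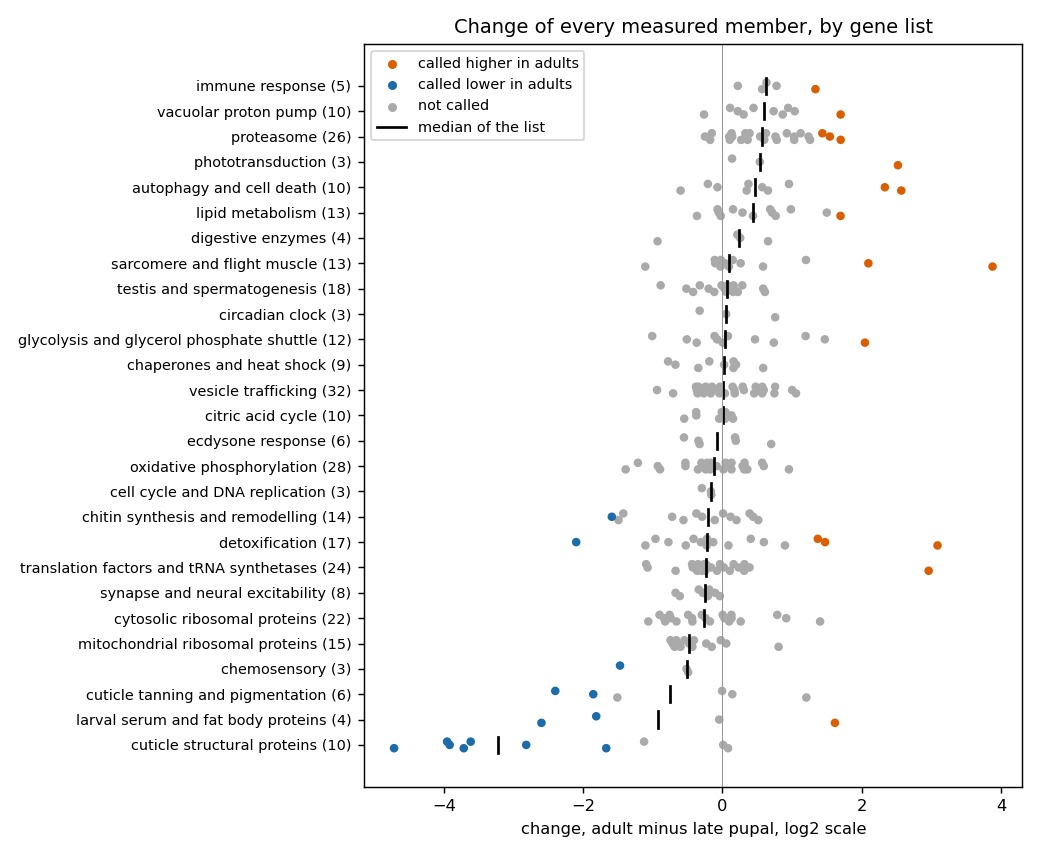
Change from late pupa to adult (log2 scale, horizontal axis) of every measured member of the gene lists with at least 3 measured genes (number in brackets), with the median of each list as a black tick. Cuticle structural proteins lie farthest to the left with a median of -3.22, and most lists centre near 0.

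The 6 housekeeping lists grouped here are ones without a called gene, so their low counts follow in part from that choice. The proteasome, translation and proton pump lists, described above, did hold called genes. None of 28 genes of oxidative phosphorylation, 10 of the citric acid cycle, 22 for cytosolic or 15 for mitochondrial ribosomal proteins passed limma's test. Nor did any of 32 genes of vesicle trafficking or 9 of the chaperone list. CG7409, of the small heat shock protein family and called higher, is not a member of the chaperone list. Medians of the 6 lists were -0.13, 0.00, -0.27, -0.48, 0.00 and 0.02. Of their 114 distinct genes, 6 had an unadjusted p below 0.05, against 313 of all 2423 genes (12.9%). Of all genes tested, 4.58% were called. With every array counted as a replicate, 10 of the 114 were called higher and 17 lower in adults, against 345 and 309 of all 2423 genes. In the mitochondrial ribosome 13 of 15 genes had a change below 0, the lowest being -0.75 in mRpL24. The 8 genes of synapse and neural excitability were also all below 0, with changes of -0.67 to -0.04 and no call. With every array as a replicate 2 of the 8 were called lower, against 309 of all 2423 genes. Ecdysone response genes, 6 of them, ranged from -0.55 in Hr39 to 0.70 in Blimp-1.

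The labels of sex and stage could be checked on few genes. The 18 measured testis genes had a median log2 ratio of 0.77 in adults and 0.69 in late pupae, against -0.56 in larvae. Their median change was 0.06, with no call and none at an unadjusted p below 0.05 either. With every array as a replicate 1 of the 18 was called lower, against 309 of all 2423 genes. The only measured gene of the female germ line list, gurken (grk), a ligand of the epidermal growth factor receptor, had -0.91, -0.93 and -0.87 in adults, against 0.69, 0.55 and 0.59 in late pupae, and fell by 1.51 (SE 0.35, adjusted p = 0.0158). Yolk protein genes were not among those measured. The glue-related gene ng3 had -1.83, -1.02 and -2.71 in adults, against -1.30, -0.91 and -2.66 in late pupae, and the 4 digestive enzymes had a median of -3.10 in adults and -3.30 in late pupae, both far below the reference.

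The 4-stage means place these changes in development. The late pupa was the highest of the 4 stages for 31 of the 48 genes called lower in adults, against 476 of all 2423 genes. It was the lowest stage for 42 of the 63 genes called higher, against 584 of all genes. These counts use the same late pupal arrays as the calls, so they describe the genes and are not separate evidence. From early to late pupa, 24 of the 48 falling genes were called higher (3.43% of all genes tested were) and 2 lower, and all 7 called cuticle genes were among the 24. Both changes use the late pupal arrays with opposite sign, so the choice of genes favours such counts and nothing is read from them. The 10 cuticle genes had a larval median of -2.20, a late pupal median of 1.13 and an adult median of -1.82.

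A group of 13 of the 63 rising genes was called lower from early to late pupa (2.35% of all genes tested were), a count favoured by the shared late pupal arrays in the same way. Being lowest in late pupae follows from how these 13 were chosen. The group held CG10570, Swim, Cyp6d5, LeuRS-m, jbug, FASN3 and Rpn3, together with curled (cu), the nocturnin gene of *Drosophila*, polybromo, a subunit of a chromatin remodelling complex, and Strip, a component of a phosphatase and kinase complex. Polybromo had -0.06, 0.60 and 0.10 in adults, against -2.13, -2.18 and -2.46 in late pupae (change 2.47, SE 0.39, adjusted p = 0.000824), and its means were 0.25 in larvae and 0.30 in early pupae. Strip had 0.14, 0.55 and -0.01 in adults, against -1.74, -2.28 and -1.68 in late pupae (change 2.13, SE 0.42, adjusted p = 0.00471), with means of 0.29 in larvae and 0.50 in early pupae. CG12818, Drat and CG6891 completed the group. By contrast Rh2 and rtp rose toward the adult from low larval and early pupal means.

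**Figure D4:**
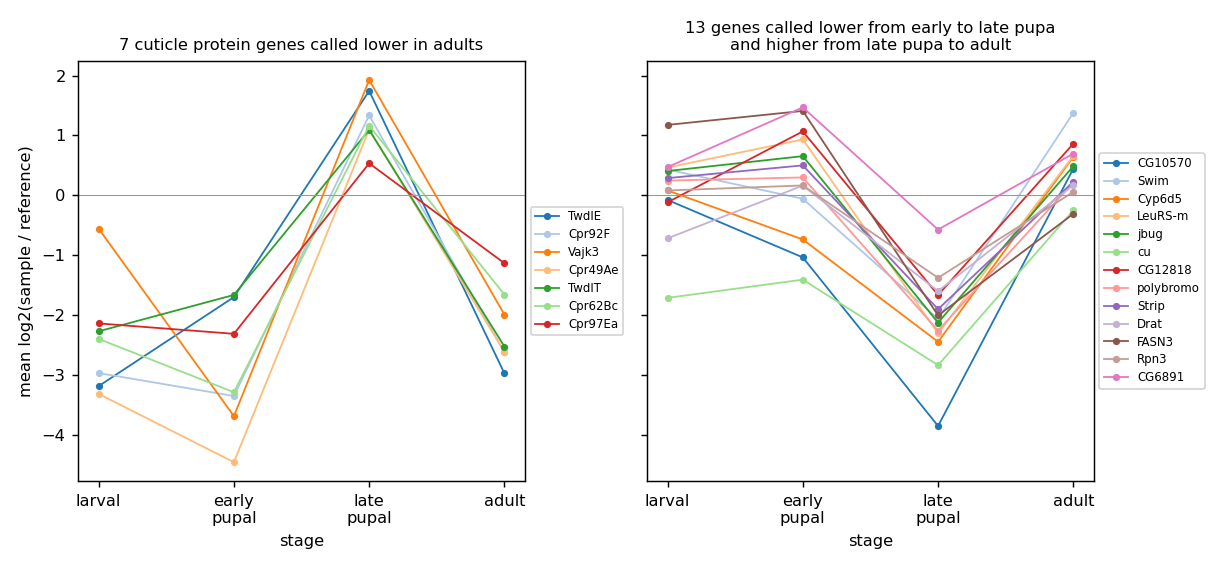
Mean log2(sample/reference) of *D. melanogaster* at 4 stages (horizontal axis, in order of development) for the 7 called cuticle protein genes (left panel) and for 13 genes called lower from early to late pupa and higher from late pupa to adult (right panel). Cuticle genes peak in late pupae between 0.54 and 1.92, and the genes at right are lowest there by the way they were chosen.

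The same transition was then read in the other groups, whose RNA pools were their own. Of the 89 called genes with values in both sibling species, 83 (93.3%) changed with the same sign in *D. simulans* and in *D. sechellia*, against 53.6% of the 1874 genes measured in all 3 species. Among genes called higher, 21 of 54 were called higher in *D. simulans* (1.60% of all its genes were), 33 of 60 in *D. sechellia* (3.18%) and 48 of 57 in the hybrids (6.90%). Among genes called lower, 13 of 40 were called lower in *D. simulans* (1.05%), 25 of 42 in *D. sechellia* (2.07%) and 38 of 44 in the hybrids (5.79%). No gene called in *D. melanogaster* was called in the opposite direction in another group. All 4 groups take their standard errors from the same hybrid pools, so that a gene of small hybrid spread is more easily called in each of them, and these overlaps of calls are given as a description only.

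The cuticle genes Cpr92F and Cpr49Ae were called lower in adults of every group. Cpr92F changed by -3.95 in *D. melanogaster*, -3.41 in *D. simulans*, -4.55 in *D. sechellia* and -3.56 in the hybrids, and Cpr49Ae by -3.71, -4.60, -4.35 and -4.11 in the same order. Mp20, which rose by 3.88 in *D. melanogaster*, changed by 3.76 in *D. sechellia* and 3.06 in the hybrids but by 0.66 in *D. simulans*, where it was not called. The median change of the proteasome list was 0.57 in *D. melanogaster*, 0.68 in *D. simulans* and 1.27 in *D. sechellia*. Since the genes were selected on *D. melanogaster* values, larger changes in that species are built into the choice.

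**Figure D5:**
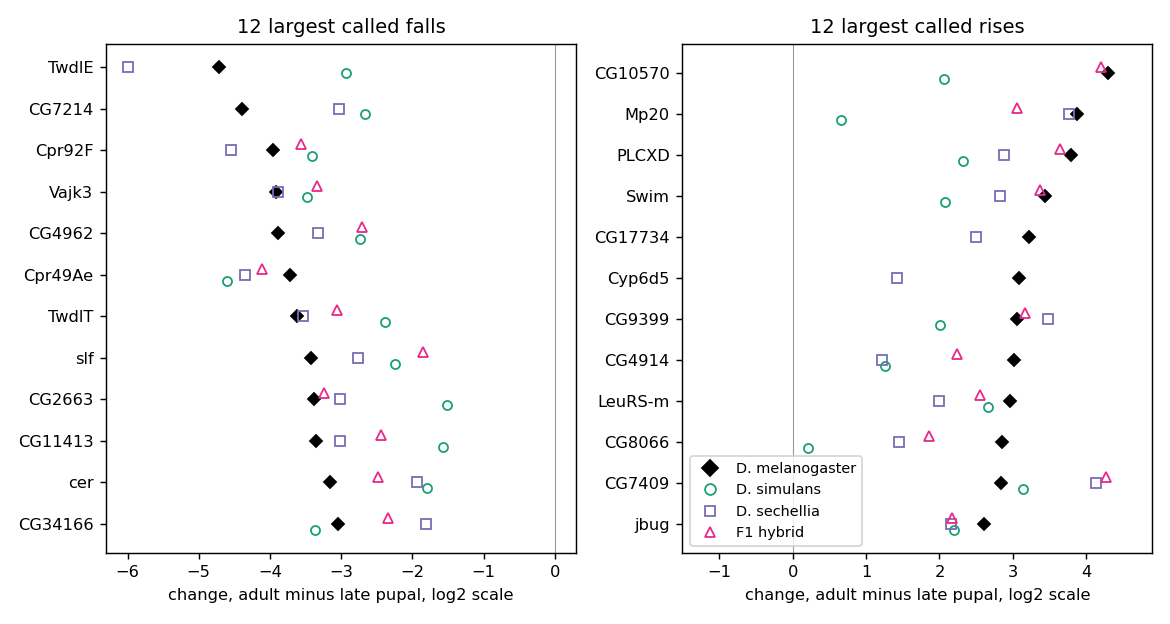
Change from late pupa to adult (log2 scale, horizontal axis) in *D. melanogaster*, *D. simulans*, *D. sechellia* and F1 hybrids for the 12 largest called falls (left panel) and rises (right panel) in *D. melanogaster*; a group without a value has no symbol. All symbols lie on the same side of 0, and CG8066 and Mp20 are nearest to 0 in *D. simulans*, at 0.21 and 0.66.

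The change in *D. melanogaster* was then compared with the mean change of the 2 sibling species, gene by gene. Of 1874 genes, none (0.00%) passed limma's test of the difference, and 76 (4.06%) had an unadjusted p below 0.05. With every array counted as a replicate, 243 genes passed, 123 with the larger and 120 with the smaller value in *D. melanogaster*. The spread in that fit mixes technical arrays of single pools with separate hybrid pools. The smallest unadjusted p belonged to CG7888, chosen for this value. It had 1.75, 1.21 and 1.48 in adults, against -0.14, -0.09 and -0.08 in late pupae (change 1.58, adjusted p = 0.025), and changed by -0.36 in *D. simulans* and -0.39 in *D. sechellia*. The difference of 1.96 (SE 0.48) had an adjusted p = 0.451, as had that of CG8066 (2.02, SE 0.50), whose change was 2.85 in *D. melanogaster*, 0.21 in *D. simulans* and 1.45 in *D. sechellia*.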

How the data were processed

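The authors scanned 2-colour cDNA arrays with QuantArray, flagged poor spots, kept elements whose spots were usable on all arrays and stages of a species, normalised with the rflowess method of maanova in R and deposited log2 ratios of sample over reference. Their intensity filter removes genes silent at a stage. Here the 2 spots of each element were averaged, and elements were named through the platform annotation (2327 elements) or the study's own list (217); 1088 stayed unnamed. All 48 value columns were used. One element, the first in the table, stood for each gene.

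Changes were fitted with limma 3.58.1 in R 4.3.3 on 23 units in 16 groups. Arrays that shared spot noise (correlation of duplicate-spot differences above 0.5) were merged, a pair in each of 7 groups, among them the hybrid adults. Pure-species arrays were averaged to 1 unit per stage, and the other hybrid pools stayed separate, giving 7 residual degrees of freedom. The p-values thus rest on the spread between hybrid pools, and nothing shows how *D. melanogaster* pools vary. A call required a Benjamini-Hochberg adjusted p below 0.05 over all genes and a 1.5-fold change. The number of RNA pools, 1 per *D. melanogaster* stage and few per hybrid stage, limits the precision. Fits were tested on simulated data, in which large changes were mostly recovered and small ones mostly missed. In the main fit the smallest called change from late pupa to adult in *D. melanogaster* was 1.27 on the log2 scale. A gene or list without a call is therefore not shown to be unchanged.

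Genes named were the 12 largest called rises and falls, every called member of 32 gene lists, up to 3 members with the largest changes of lists with fewer than 3 calls, and genes said in the text to be chosen after seeing values. Other named genes, such as Cpr100A, Rpt6 and Sclp, fall under none of these rules. Members and lists were chosen with earlier results of these data known. Alternatives covered replication, merging, scaling, filters, elements, the variance model, the methods' t-test and left-out replicates.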

Additional observations from a re-analysis of the deposited data

How the results depend on the processing

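The count of 111 called genes (63 higher, 48 lower) depended mostly on what counted as a replicate. With every array as a replicate it was 654 (345 higher, 309 lower) over all groups, 614 (321 and 293) on the *D. melanogaster* arrays alone and 645 (337 and 308) with a replicate block on the label numbers. Those numbers do not pair the samples: deviations of same-numbered arrays correlated at 0.38, -0.07 and 0.04, and not every array correlated best with its own number. The methods' t-test over 6 spots, which treats spots as replicates, passed 610 genes (319 and 291) at their threshold and 653 (337 and 316) after Benjamini-Hochberg. For the difference from the sibling species the count was 0, and 243 with every array as a replicate. Leaving out 1 array or pool, or 1 replicate number in every group, gave 38 to 178 called genes, 23 to 99 higher and 15 to 79 lower; the extremes were without replicate 3 (38) and without replicate 1 (178) of every group. With no replicate 3, 27 of the 48 called genes of the naming rule lost their call, and with no replicate 1, 0 did. Either fit had 1 hybrid array fewer per stage for the spread, and the reason for the difference was not tested. All 48 kept their direction under every alternative that measured them. Genes measured in all 4 groups, 1671 of them, gave 83 calls (49 higher, 34 lower), and with a variance trend and robust prior 83 (51 and 32). Scaling arrays to the same SD gave 55 higher and 46 lower. The robust prior without a trend, added after seeing the data, gave 110. The other settings left the counts within 1.5-fold.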

Other observations

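Among the 1088 measured elements with no gene name, 21 were called higher and 16 lower in adults when every element was tested on its own. Of all 3632 measured elements, 75 were called higher and 61 lower in that fit.

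The small chromosome 4 stood apart in direction, a pattern noticed in the data and not tested. Of its 29 measured genes, 27 had a change below 0 (93.1%, against 50.3% of all genes tested), although the median change was only -0.20 and yellow-h was its single call. The median of these genes was 0.54, 0.38 and 0.19 on the adult arrays, against 0.76, 0.49 and 0.80 on the late pupal arrays, so the arrays of the stages overlapped. In *D. sechellia* 20 of 25 genes of that chromosome were below 0, in *D. simulans* 8 of 26, and in the hybrids 16 of 24.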
